A study of Homo sapiens with 4 samples.

Results

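ERK feedback genes of the SPRY-DUSP6 group are 10 genes, SPRY2, SPRY4, SPRED1, SPRED2, DUSP4, DUSP5, DUSP6, ETV4, ETV5 and PHLDA1, taken by symbol from the 60612 genes of the deposited tables. They were chosen with measured values of these libraries known, so their levels and differences are given as a description, with no test. The study sequenced poly(A) RNA of HCT116 and RKO, established cell lines from human colorectal cancers, as paired ends. The 4 groups, with 1 library each, were HCT116 with AVEN overexpression (OE), HCT116 wildtype for AVEN (WT), RKO with AVEN overexpression and RKO wildtype for AVEN. AVEN encodes an inhibitor of apoptosis. How overexpression was brought about, whether the cells are clones and whether the libraries came from separate cultures are not given in the sources used here. With 1 library per group, no difference has a replicate check, and "higher" and "lower" describe the libraries that were sequenced.

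The RAS-RAF-MEK-ERK cascade carries growth signals from receptor tyrosine kinases to the nucleus, and active ERK induces genes whose products dampen the same cascade. Sprouty (SPRY) and SPRED proteins act upstream, around RAS and RAF, while dual-specificity phosphatases (DUSP) remove phosphate from ERK itself. ETV4 and ETV5 are ETS transcription factors that rise with ERK activity and are repressed by Capicua (CIC), and PHLDA1 is another transcript commonly read as a measure of ERK output.

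Levels are the authors' FPKM values (fragment numbers scaled to transcript length and library size) and can be set side by side between genes. Each line has its own table, and the tables may have been normalized separately. Judged by the smallest steps among low values, a 1 kilobase transcript at 1 FPKM was covered by about 18.6 to 20.8 fragments, depending on the library. Ranges after a fold are 95% exact counting intervals on such estimated fragments and cover counting error only. The mitochondrially encoded share of summed FPKM was 45.6% and 44.7% in HCT116 OE and WT, and 30.3% and 32.8% in RKO OE and WT. AVEN itself stood at 2.96 FPKM in HCT116 OE against 1.53 in HCT116 WT, and at 4.43 FPKM in RKO OE against 1.34 in RKO WT. Its ratio was 1.94 (1.16 to 3.41) in HCT116, on about 48 and 22 fragments in OE and WT. In RKO the ratio was 3.32 (2.04 to 5.80), on about 68 and 21 fragments. Of the epithelial markers, KRT19 stood at 381 and 380 FPKM and CDH1, the gene of E-cadherin, at 17.5 and 8.25 FPKM in HCT116 OE and WT. In RKO OE and WT, KRT19 stood at 0.0426 and 0.0659 FPKM and CDH1 at 0.00834 and 0.00800 FPKM, while KRT18 stood at 71.8 and 37.4 FPKM, KRT8 at 7.01 and 5.09 FPKM, CDX2 at 4.83 and 4.38 FPKM and EPCAM at 2.02 and 3.08 FPKM. The epithelial list summed to 961 and 995 FPKM in HCT116 OE and WT and to 85.9 and 51.1 FPKM in RKO OE and WT. Of 12 markers of blood, endothelium and fibroblasts, 3 in HCT116 and 2 in RKO averaged 1 FPKM or more, and their sums of 7.38 and 7.53 FPKM in HCT116 OE and WT and of 197 and 200 FPKM in RKO OE and WT were mostly CD68 in RKO. In HCT116 OE and WT, CLDN4 stood at 8.88 and 1.07 FPKM, KRT8 at 225 and 276 FPKM and CDX2 at 4.83 and 5.44 FPKM. CDH17 was listed at 0.0001 in all 4 libraries. The part of these markers in the results was not tested. In bulk RNA, fewer cells with a transcript and less of it per cell cannot be told apart.

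**Figure D1:**
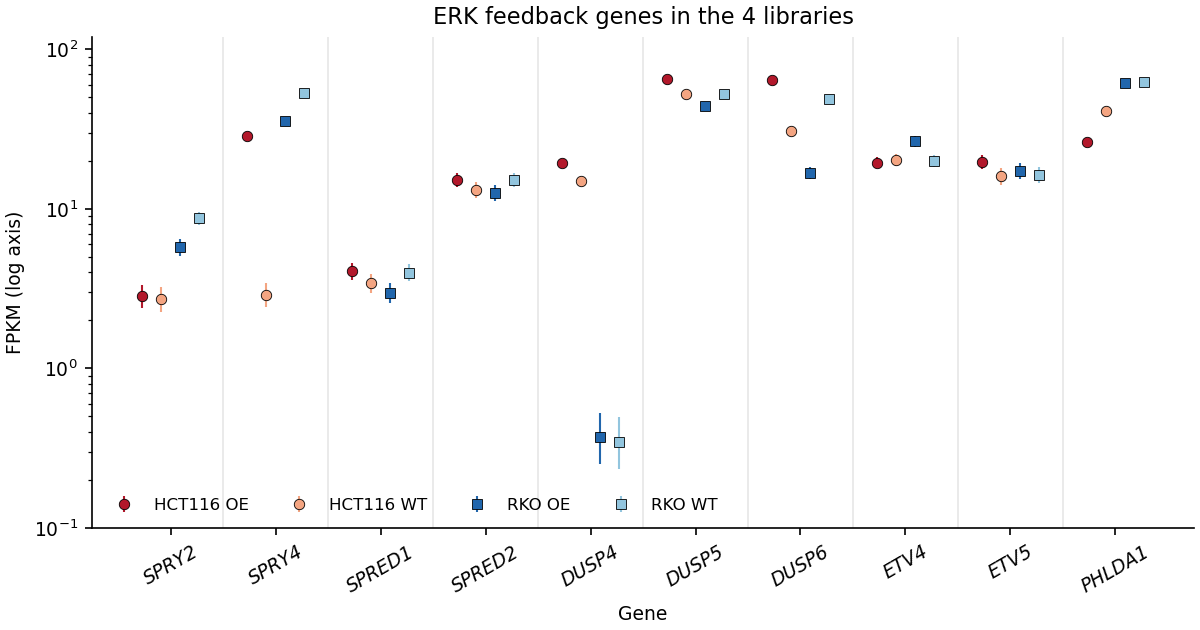
FPKM of the 10 genes (log axis) in HCT116 OE, HCT116 WT, RKO OE and RKO WT, 1 library each; bars are 95% Poisson intervals on estimated fragments and cover counting error only. SPRY4 is low in HCT116 WT alone at 2.89 FPKM, DUSP6 is lowest in RKO OE at 16.8 FPKM, and DUSP4 is under 1 FPKM in both RKO libraries.

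SPRY4 and DUSP6 gave the group's widest differences between OE and WT libraries, and both pointed opposite ways in the 2 lines. SPRY4 (ENSG00000187678), a Sprouty protein that restrains signalling from receptor tyrosine kinases to RAS and RAF, is annotated at chr5:142310427-142326455 on the minus strand in GENCODE release 29 (GRCh38), with 6 transcripts. DUSP6 (ENSG00000139318), a cytoplasmic phosphatase selective for ERK, is annotated at chr12:89347232-89353271, also on the minus strand, with 5 transcripts. Of the 10 genes, 6 had entries in the RefSeq promoter table (those without were DUSP4, DUSP5, ETV4 and ETV5), and the windows of SPRY4 and DUSP6 are printed because these genes carry the differences described here. Each runs 5′ to 3′ along the gene's strand, from 250 bases before to 50 bases after the start of the RefSeq entry, on GRCh38.p14. Both windows lie inside the GENCODE spans given above, so the 5′ ends of those spans were not covered. Capitals mark CIC octamers in the DUSP6 window (chr12:89352452-89352751, minus strand) and a GC box in the SPRY4 window (chr5:142324198-142324497, minus strand).
DUSP6: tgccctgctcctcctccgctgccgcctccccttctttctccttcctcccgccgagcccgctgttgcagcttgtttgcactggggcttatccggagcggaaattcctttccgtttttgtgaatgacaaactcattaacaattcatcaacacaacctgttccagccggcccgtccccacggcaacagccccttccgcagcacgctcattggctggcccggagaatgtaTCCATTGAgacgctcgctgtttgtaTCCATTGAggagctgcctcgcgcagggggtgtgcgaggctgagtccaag
SPRY4: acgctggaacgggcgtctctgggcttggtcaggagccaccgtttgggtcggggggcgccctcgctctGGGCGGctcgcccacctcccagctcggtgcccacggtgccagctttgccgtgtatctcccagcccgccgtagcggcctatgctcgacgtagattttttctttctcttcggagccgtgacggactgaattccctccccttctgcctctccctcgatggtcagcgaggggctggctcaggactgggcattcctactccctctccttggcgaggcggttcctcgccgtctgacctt

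The octamer bound by the repressor CIC was searched on both strands as TGAATGAA, TGAATGGA, TCAATGAA and TCAATGGA. The DUSP6 window held 2 of them, both as TCCATTGA (the reverse complement of TCAATGGA), with first bases at -24 and 2, where 1 is the first transcribed base of the RefSeq entry. Of 35116 promoter windows of the same length, 3.77% held at least 1 such octamer and 0.327% held 2 or more. The SPRY4 window held none of them, and neither did the windows found for SPRY2, SPRED1, SPRED2 or PHLDA1. Of ETS elements only the form CCGGAA was searched, which was present in 17.2% of all windows. It was found in 1 window of SPRY2 and in that of PHLDA1. Windows without it may hold other ETS forms. The AP-1 element TGACTCA, present in 4.95% of all windows, was found in 1 window of SPRED2. The cyclic AMP element TGACGTCA (1.85% of windows) and the CArG box (1.29%) were in none of the windows of these genes. A GC box (GGGCGG, 45.0% of windows) was found in SPRY4, SPRY2, SPRED1, SPRED2 and PHLDA1. Such matches describe letters, and no binding was measured.

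Among the Sprouty genes, SPRY4 was far higher in HCT116 OE than in HCT116 WT, while SPRY2 was not. SPRY4 stood at 28.5 FPKM in HCT116 OE, against 2.89 FPKM in HCT116 WT, a 9.87-fold difference (8.22 to 11.9). Those levels rest on about 1416 and 129 fragments. In RKO, SPRY4 stood at 35.8 FPKM in OE, against 53.3 FPKM in WT, 1.49-fold lower in OE (1.40 to 1.59). HCT116 WT was thus the single library with little SPRY4 mRNA, and the other 3 lay between 28.5 and 53.3 FPKM. Between lines, SPRY4 was 18.5-fold lower in HCT116 WT than in RKO WT (15.4 to 22.1) but 1.25-fold lower in HCT116 OE than in RKO OE (1.17 to 1.35). On the log2(FPKM + 1) scale used for all genes, where the change of low genes is understated, the OE minus WT difference was 2.92 in HCT116 and -0.56 in RKO. Among the 11333 genes that averaged 1 FPKM or more in HCT116, 8 had a larger positive difference. The authors' deposited table listed p = 4.41e-06 and q = 0.00548 for SPRY4 in HCT116, and q = 1 in RKO. Of all 60612 listed genes, 0.0445% had q under 0.05 in HCT116 and 0.0709% in RKO. These shares count every listed gene, most of them at 0.0001 FPKM, and not only genes averaging 1 FPKM or more.

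SPRY2, the paralog of SPRY4 that also restrains RAS-ERK signalling, stood at 2.84 FPKM in HCT116 OE and 2.72 FPKM in HCT116 WT, a ratio of 1.04 whose counting interval (0.814 to 1.34) included equality. In RKO its level was 5.73 FPKM in OE, against 8.74 FPKM in WT, 1.53-fold lower in OE (1.31 to 1.78). The order of SPRY2 levels was RKO WT, RKO OE and then the pair of HCT116 libraries, which did not differ beyond counting error. In HCT116 WT the levels of SPRY4 and SPRY2 were also within counting error of each other, whereas in HCT116 OE only SPRY4 was high.

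The SPRED genes encode membrane-bound relatives of Sprouty that bring neurofibromin to RAS. Both had ratios above 1 in HCT116 and below 1 in RKO. SPRED1 stood at 4.07 FPKM in HCT116 OE and 3.41 FPKM in HCT116 WT, a ratio of 1.19 (0.989 to 1.44). It stood at 2.96 FPKM in RKO OE and 3.99 FPKM in RKO WT, a ratio of 0.743 (0.612 to 0.902). SPRED2, the more abundant of the pair in each of the 4 libraries, stood at 15.2 FPKM in HCT116 OE and 13.1 FPKM in HCT116 WT, a ratio of 1.16 (0.995 to 1.34). It stood at 12.6 FPKM in RKO OE and 15.1 FPKM in RKO WT, a ratio of 0.833 (0.716 to 0.966). In HCT116 both intervals included equality, so neither difference was detectable at this depth, and in RKO the intervals lay below 1.

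Among the phosphatases, DUSP6 stood at 64.2 FPKM in HCT116 OE, against 30.8 FPKM in HCT116 WT, 2.08-fold higher in OE (1.93 to 2.25). In RKO the level was 16.8 FPKM in OE, against 48.9 FPKM in WT, 2.91-fold lower in OE (2.65 to 3.21). The ranking of DUSP6 between lines therefore turned round, with HCT116 WT 1.59-fold lower than RKO WT (1.47 to 1.72) and HCT116 OE 3.82-fold higher than RKO OE (3.48 to 4.196). Log2 differences were 1.04 in HCT116, with 108 of 11333 genes larger, and -1.49 in RKO, with 75 of 11007 genes more negative. The authors' deposited table marked DUSP6 as significant in RKO, on an unadjusted p = 0.0341 with q = 1, where 0.563% of its genes were marked, and not in HCT116 (p = 0.118), where 0.419% were. An antisense gene that overlaps 1875 exonic bases of DUSP6 stood at 2.23 and 2.75 FPKM in HCT116 OE and WT and at 0.211 and 1.67 FPKM in RKO OE and WT. The strand setting of the libraries was not given in the labels, so reads of that gene and of DUSP6 may not be separable.

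DUSP5, a nuclear phosphatase that binds ERK, was higher in HCT116 OE and lower in RKO OE, each by less than 1.5-fold. It stood at 64.9 FPKM in HCT116 OE and 52.3 FPKM in HCT116 WT, a ratio of 1.24 (1.17 to 1.32). It stood at 44.2 FPKM in RKO OE and 52.5 FPKM in RKO WT, a ratio of 0.843 (0.786 to 0.903). In the FPKM as deposited, the WT libraries of the 2 lines held the same DUSP5 level within counting error (ratio HCT116 over RKO 0.996, 0.931 to 1.06), and the OE libraries lay on either side of it. That equality depends on the scaling between the lines, since the median log2 difference of all genes, HCT116 WT minus RKO WT, was -0.14.

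DUSP4, a nuclear phosphatase that acts on ERK and on stress-activated kinases, was under 1 FPKM in RKO. It stood at 19.4 FPKM in HCT116 OE and 15.03 FPKM in HCT116 WT, a ratio of 1.29 (1.197 to 1.39). It stood at 0.369 FPKM in RKO OE and 0.345 FPKM in RKO WT, about 31 and 30 fragments, a ratio of 1.07 (0.631 to 1.84). DUSP4 was 52.5-fold higher in HCT116 OE than in RKO OE (36.6 to 77.0) and 43.6-fold higher in HCT116 WT than in RKO WT (30.4 to 64.9). Of the 10 genes it was the only one that missed a mean of 1 FPKM, and it did so in RKO only.

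ETV4 and ETV5, the transcription factors of the group, differed by less than 1.5-fold in both lines, most for ETV4 in RKO. ETV4 stood at 19.5 FPKM in HCT116 OE and 20.2 FPKM in HCT116 WT, a ratio of 0.966 (0.856 to 1.09), and at 26.5 FPKM in RKO OE and 19.99 FPKM in RKO WT, a ratio of 1.32 (1.18 to 1.48). ETV5 stood at 19.7 FPKM in HCT116 OE and 16.0 FPKM in HCT116 WT, a ratio of 1.23 (1.05 to 1.45), and at 17.3 FPKM in RKO OE and 16.4 FPKM in RKO WT, a ratio of 1.06 (0.894 to 1.24). In RKO, ETV4 was thus higher in the same OE library in which DUSP6 and both Sprouty genes were lower. In the FPKM as deposited, the WT levels of both genes were equal between lines within counting error, with HCT116 over RKO ratios of 1.01 (0.896 to 1.14) for ETV4 and 0.977 (0.823 to 1.15) for ETV5. As for DUSP5, such equality depends on the scaling between the lines. ETV5 shares 164 exonic bases on the same strand with DGKG.

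PHLDA1, a pleckstrin homology-like protein, was lower in HCT116 OE, opposite to SPRY4 and DUSP6. It stood at 26.3 FPKM in HCT116 OE, against 41.3 FPKM in HCT116 WT, 1.57-fold lower in OE (1.51 to 1.64). In RKO it was the most abundant of the 10 genes, at 61.8 FPKM in OE and 62.2 FPKM in WT, a ratio of 0.994 (0.963 to 1.025).

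**Figure D2:**
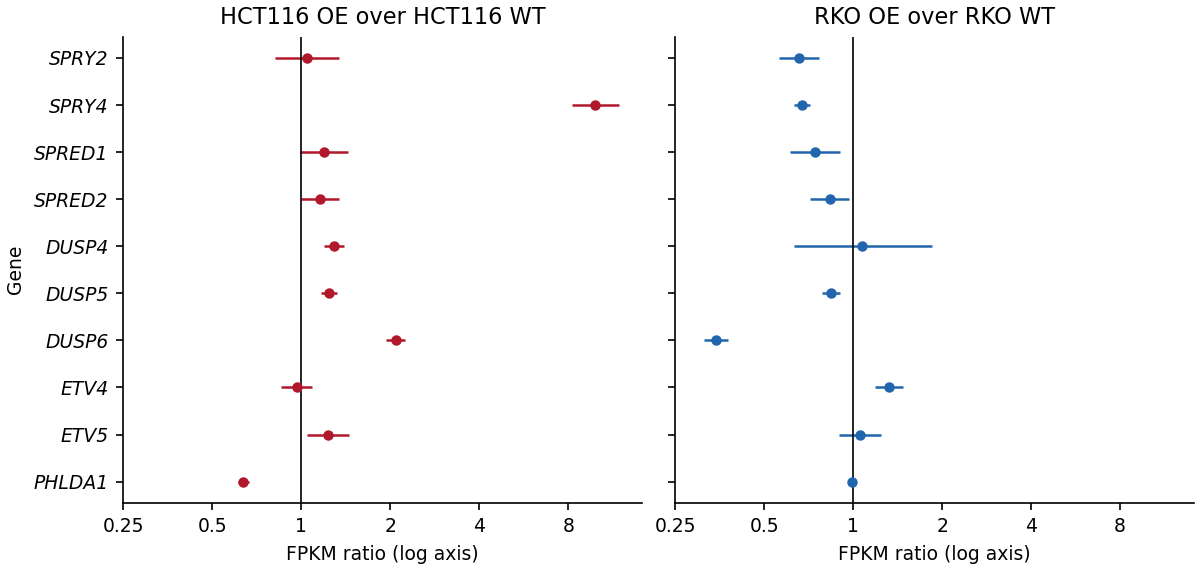
Ratio of FPKM, OE over WT, for the 10 genes in HCT116 and in RKO (log axis, 1 library per group); bars are 95% exact counting intervals. SPRY4 (9.87) and DUSP6 (2.08) lie right of 1 in HCT116, and DUSP6 (0.344), SPRY2 (0.655) and SPRY4 (0.671) lie left of 1 in RKO.

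In HCT116, 2 of the 10 genes were past 1.5-fold higher in OE (SPRY4 and DUSP6), where 3.26% of 11333 genes were, and 1 was past 1.5-fold lower (PHLDA1), where 3.22% were (6.49% in either direction). Past 2-fold were SPRY4 and DUSP6, where 2.05% of genes were in either direction. The median log2 difference of the 10 genes was 0.24, against 0.01 for all genes. Of the 10, 8 were above 0, where 51.4% of all genes were. In RKO, 9 of the 10 genes averaged 1 FPKM or more, of which none was past 1.5-fold higher, where 4.11% of 11007 genes were, and 1 was past 1.5-fold lower (DUSP6), where 8.43% were (12.5% in either direction). DUSP6 was also past 2-fold, where 3.25% of genes were in either direction. The median of the 9 genes was -0.25, against -0.09 for all genes. Of the 9, 7 were below 0, where only 40.7% of all genes were above 0. Since the genes were chosen from these values, nothing is read from the counts. Nearest to the 1.5-fold limit were PHLDA1 in HCT116, just past it at -0.63, and SPRY4 and SPRY2 in RKO, just short of it at -0.56 and -0.53 on the log2 scale. Under a pseudocount of 0.1 SPRY2, and under rescaling without mitochondrial genes or GC and length correction SPRY4, passed it, so the RKO count became 2.

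Of the 9 genes that passed in both lines, 7 differed in opposite directions, as did 58.9% of the 9887 genes that passed in both. Of these, 6 were higher in HCT116 OE and lower in RKO OE, as were 33.5% of the 9887 genes. They were SPRY2, SPRY4, SPRED1, SPRED2, DUSP5 and DUSP6. With GC and length correction SPRED1 turns positive in RKO (0.07) and SPRY2 turns negative in HCT116 (-0.02), which leaves 4 of the 6. ETV5 was higher in both, PHLDA1 lower in both (its RKO value of -0.01 turns positive under centring and under GC and length correction), and ETV4 lower in HCT116 OE and higher in RKO OE. Summed over the 10 genes, levels were 265 FPKM in HCT116 OE, 198 FPKM in HCT116 WT, 224 FPKM in RKO OE and 281 FPKM in RKO WT.

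**Figure D3:**
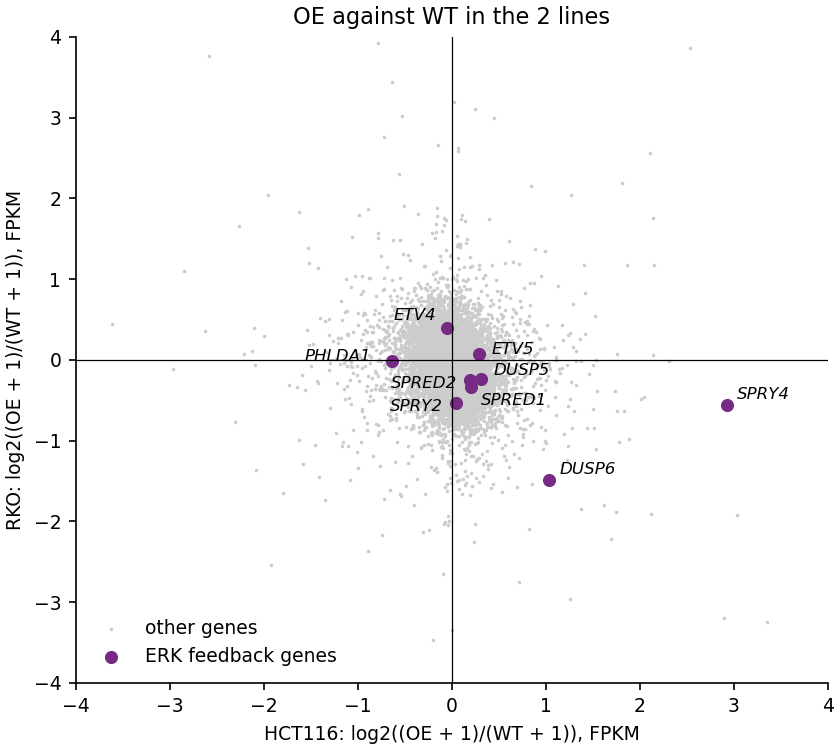
Log2 difference of OE and WT on the FPKM + 1 scale in HCT116 (x axis) and in RKO (y axis) for genes averaging 1 FPKM or more in both lines; purple points are the 9 ERK feedback genes that passed, grey points all others, and genes past 4 in either line are outside the plot. SPRY4 lies at 2.92 and -0.56 and DUSP6 at 1.04 and -1.49, with the other 7 genes between -0.63 and 0.31 in HCT116 and between -0.53 and 0.39 in RKO.

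Set side by side, the genes past 2-fold between the lines on the log2(FPKM + 1) scale were not all the same in OE and in WT libraries. Between the WT libraries, SPRY2, SPRY4 and DUSP4 were past 2-fold on the log2(FPKM + 1) scale, 3 of 10 genes, where 20.3% of 11560 genes were and the median of all genes was -0.14 (HCT116 minus RKO). Between the OE libraries, DUSP4, DUSP6 and PHLDA1 were, again 3 of 10, where 21.3% of 11487 genes were. SPRY2 missed that limit between the OE libraries, at -0.81 on this scale, though its FPKM was 2.02-fold lower in HCT116 OE than in RKO OE (1.64 to 2.49). DUSP4 was higher in HCT116 in both pairs. PHLDA1 was 2.35-fold lower in HCT116 OE than in RKO OE (2.26 to 2.45) and 1.505-fold lower in HCT116 WT than in RKO WT (1.45 to 1.56).

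In RKO the difference between OE and WT moved with the GC content of the transcripts, and Spearman's rho was 0.55 over 10971 genes in RKO and -0.12 over 11305 genes in HCT116 (genes are not independent replicates). The part of GC content in the RKO values was not tested beyond the correction that follows. GC content of the 10 genes ran between 40.7% (SPRED1) and 60.3% (ETV4). With GC content and length corrected for, DUSP6 stood at -1.43 and SPRY4 at -0.59 in RKO, close to their uncorrected values. SPRY2 stood at -0.31 in place of -0.53, and SPRED1 at 0.07 in place of -0.33, so that the lower value of SPRED1 in RKO OE was lost. PHLDA1 stood at 0.32 in place of -0.01, and ETV4 at 0.26 in place of 0.39. In HCT116 the corrected differences were 2.89 for SPRY4, 1.01 for DUSP6 and -0.76 for PHLDA1.

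**Figure D4:**
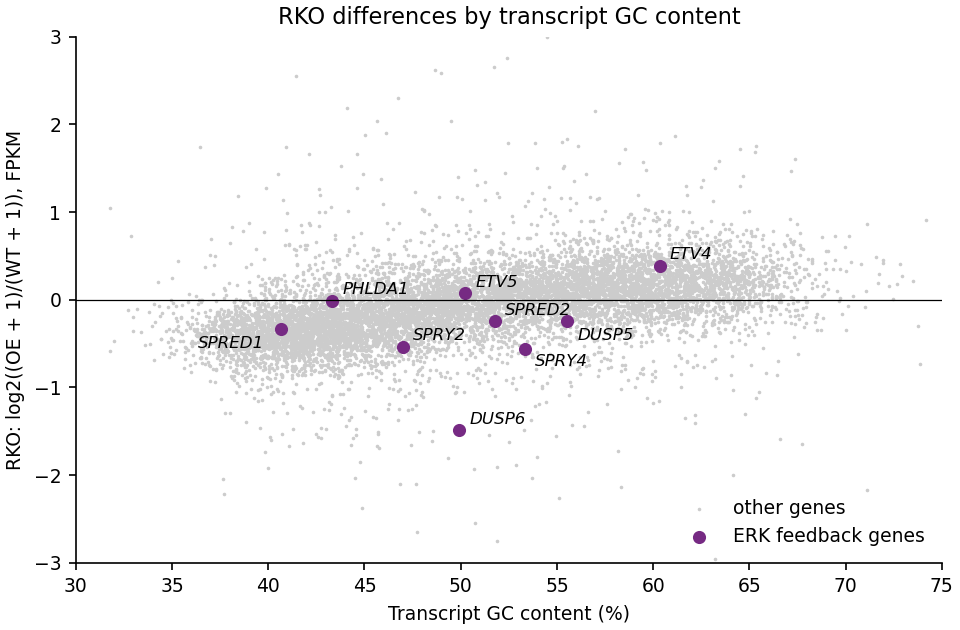
Log2 difference of OE and WT in RKO on the FPKM + 1 scale against the GC content of each gene's transcripts, in percent, for genes averaging 1 FPKM or more in both lines; purple points are ERK feedback genes, and a few genes lie outside the plotted range. The cloud climbs with GC content, and DUSP6, at 49.9% GC and -1.49, lies below it.

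The remaining genes of the cascade are given by list. Over all genes in HCT116, 3.26% were past 1.5-fold higher in OE and 3.22% lower, with a median of 0.01. Over all genes in RKO, 4.11% were past 1.5-fold higher in OE and 8.43% lower, with a median of -0.09. Of 29 genes of the cascade core, 24 averaged 1 FPKM or more in each line. In HCT116, 1 was past 1.5-fold higher in OE and 2 lower, with a median of 0.02 (-0.02 once corrected for GC content and length). MRAS, a RAS relative that activates RAF with SHOC2, stood at 2.29 FPKM in HCT116 OE and 0.421 FPKM in HCT116 WT, EGFR at 5.77 and 3.76 FPKM, the RAS gene HRAS at 16.0 and 27.3 FPKM and the adaptor gene SHC1 at 29.2 and 44.6 FPKM. In RKO, 1 was past 1.5-fold higher and 1 lower, with a median of -0.18 (0.06 once corrected for GC content and length). The kinase gene MAP2K2, which encodes MEK2, stood at 24.4 FPKM in RKO OE and 15.04 FPKM in RKO WT, HRAS at 21.3 and 14.4 FPKM, NRAS at 8.82 and 14.6 FPKM and BRAF at 0.650 and 1.43 FPKM.

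Of 26 other negative regulators, 20 in HCT116 and 19 in RKO passed the mean of 1 FPKM. In HCT116, 1 was past 1.5-fold higher and 1 lower in OE, with a median of -0.01. PEA15, a protein that holds ERK in the cytoplasm, stood at 33.4 FPKM in HCT116 OE and 18.7 FPKM in HCT116 WT, and DAB2IP, a RAS GTPase-activating protein, at 3.03 and 5.39 FPKM. IL17RD, an inhibitor of FGF receptor signalling, stood at 2.37 and 1.29 FPKM, and the phosphatase gene DUSP9 at 4.41 and 6.83 FPKM. In RKO, none was past 1.5-fold higher and 3 were lower, with a median of -0.07. RASA1, another RAS GTPase-activating protein, stood at 2.53 FPKM in RKO OE and 7.29 FPKM in RKO WT, ERRFI1, which inhibits EGF receptors, at 3.01 and 7.25 FPKM, DUSP2 at 9.09 and 5.90 FPKM and DUSP7 at 17.6 and 12.8 FPKM. The other Sprouty genes were low, with SPRY1 between 0.507 and 1.24 FPKM and SPRY3 between 0.0768 and 0.119 FPKM over the 4 libraries.

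Of 29 other ERK output genes, 27 in HCT116 and 25 in RKO passed. In HCT116, 2 were past 1.5-fold higher and 2 lower, with a median of 0.21 and 19 of 27 above 0, where 51.4% of all genes were. GDF15, a stress-induced cytokine, stood at 104 FPKM in HCT116 OE and 58.1 FPKM in HCT116 WT, and ETV1, the relative of ETV4 and ETV5, at 3.33 and 1.85 FPKM. MYC stood at 5.57 FPKM in HCT116 OE and 39.6 FPKM in HCT116 WT, and EMP1, a membrane protein gene, at 0.508 and 1.69 FPKM. In RKO, 4 were past 1.5-fold higher and 2 lower, with 15 of 25 above 0, where 40.7% of all genes were. Their median was 0.17 (0.12 once corrected for GC content and length), opposite in sign to that of the 9 feedback genes. GDF15 stood at 25.3 FPKM in RKO OE and 12.6 FPKM in RKO WT, FOS at 4.24 and 1.97 FPKM, the potassium channel gene KCNN4 at 11.4 and 22.6 FPKM and the cyclin gene CCNL1 at 1.53 and 3.22 FPKM.

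Repressors and turnover factors of the ETV and SPRY proteins showed none past 1.5-fold higher in either line. Of 13 that passed in HCT116, 1 was past 1.5-fold lower, with a median near 0 (0.0018), and of 14 in RKO, 2 were, with a median of -0.07 (0.10 once corrected for GC content and length). CIC stood at 6.43 FPKM in HCT116 OE, 6.27 FPKM in HCT116 WT, 6.70 FPKM in RKO OE and 6.35 FPKM in RKO WT. The ubiquitin ligase gene SIAH1 stood at 2.11 FPKM in HCT116 OE and 4.48 FPKM in HCT116 WT, the caveolin gene CAV1 at 23.4 and 31.4 FPKM, CBL at 6.38 and 4.16 FPKM and MKNK1 at 3.89 and 2.73 FPKM. In RKO OE and WT, CAV1 stood at 1.62 and 3.69 FPKM, NEDD4 at 1.70 and 3.08 FPKM, TESK1 at 15.3 and 10.0 FPKM and ERF at 23.9 and 19.6 FPKM. The PHLDA1 relatives PHLDA2 and PHLDA3 stood at 162 and 7.11 FPKM in HCT116 OE, 203 and 8.84 FPKM in HCT116 WT, 157 and 13.5 FPKM in RKO OE and 98.2 and 12.8 FPKM in RKO WT. The MPAS genes, a published MAPK activity set that shares 7 of its 10 genes with the group, had a median of 0.28 in HCT116 over 9 that passed and of -0.07 in RKO over 8. Its other genes include CCND1, at 98.9 and 85.9 FPKM in HCT116 OE and WT and 30.4 and 33.6 FPKM in RKO OE and WT, and EPHA2, at 53.9 and 43.1 FPKM in HCT116 OE and WT and 82.8 and 72.5 FPKM in RKO OE and WT.

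**Figure D5:**
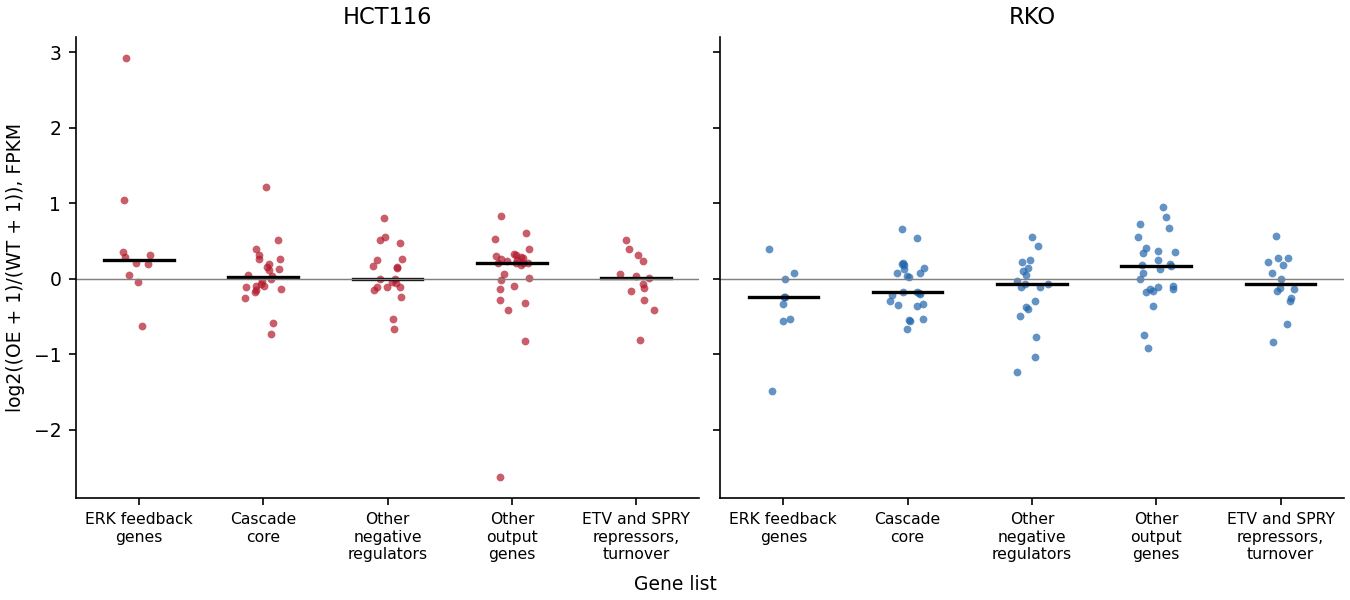
Log2 difference of OE and WT on the FPKM + 1 scale for the genes of each list averaging 1 FPKM or more, in HCT116 and in RKO; points are genes, scattered sideways for legibility, and bars are medians. The ERK feedback genes have medians of 0.24 and -0.25, and the other output genes 0.21 and 0.17.

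The genes whose profile over the 4 libraries lay nearest to that of SPRY4, by Euclidean distance of centred log2(FPKM + 1) values among 5562 protein-coding genes averaging 5 FPKM or more, were GPX8 (distance 1.27), ANGPTL4 (1.44) and SH2B3 (1.54). GPX8 stood at 6.59 FPKM in HCT116 OE, 1.05 FPKM in HCT116 WT, 4.90 FPKM in RKO OE and 10.6 FPKM in RKO WT, so like SPRY4 it was low in HCT116 WT alone. In the same order, ANGPTL4 stood at 7.28, 3.19, 27.9 and 29.7 FPKM and SH2B3 at 12.8, 6.57, 51.4 and 64.8 FPKM. Unlike SPRY4, ANGPTL4 and SH2B3 were thus low in both HCT116 libraries beside RKO. Nearest to DUSP6 were RAB4A (0.5001), GCH1 (0.565) and P4HA1 (0.566). RAB4A stood at 16.1 FPKM in HCT116 OE, 9.30 FPKM in HCT116 WT, 5.53 FPKM in RKO OE and 10.8 FPKM in RKO WT. With 4 libraries, such likeness is a description of these samples.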

How the data were processed

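Poly(A) RNA of 4 libraries, 1 per group, was sequenced from both ends, per the labels' protocols; sample titles gave the groups. The authors deposited, for each line, FPKM per gene and library, in which most genes are listed at exactly 0.0001, and their own fold ratio, log2 ratio, p-value and q-value per gene, whose test no label names. Tools listed in the submitters' processing notes are HISAT2 2.0, StringTie 1.3.0 and Bowtie 0.12.2, beside a mouse build, while the deposited identifiers are human, so the build behind the FPKM values is unsettled. Gene positions, transcript lengths and GC content were read from GENCODE release 29 (GRCh38), which held 58394 of 60612 identifiers.

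The 10 genes and the gene lists were chosen with earlier results of these data known. Differences are log2((OE + 1)/(WT + 1)), over genes averaging 1 FPKM or more in a line. The worth of 1 fragment was read from genes of 1 exon and 400 or more nucleotides, where 43.7% to 45.1% of values of up to 5 fragments lay within 2% of a whole multiple or a multiple of 0.5, against 22.7% for even spread, so fragment numbers are estimates. They use the mean transcript length of a gene, and intervals are exact conditional Clopper-Pearson intervals at 95%. No label mentions molecular identifiers. Correction for GC content and length subtracted medians over 20 GC bins and 10 length bins. The genes named were AVEN, the 10 genes, up to 4 per list and line (the 2 highest and 2 lowest), and 3 nearest profiles each for SPRY4 and DUSP6; CIC, CCND1, SPRY1, SPRY3, KRT19, CDH17 and DGKG were named, as were EPHA2 in HCT116 and CDH1 in RKO, beside them after their values were seen. The calculations were tested on simulated data. Promoter windows were RefSeq's, on GRCh38.p14. Python 3.11.15, pandas 2.3.3, scipy 1.17.1 and bedtools 2.31.1 were used. No test was run, since each group has 1 library and the genes were chosen from the same values.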

Additional observations from a re-analysis of the deposited data

Results flagged for a closer look

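For 3 of the 10 genes the OE and WT libraries differed in opposite directions in the 2 lines, with counting intervals that lay off 1 in both. Opposite directions of any size were found for 58.9% of the 9887 genes that passed in both lines. The share of all genes whose intervals also lay off 1 was not computed, so the count is not read as unusual. The log2 difference in HCT116 minus that in RKO was 3.49 for SPRY4, 2.52 for DUSP6 and 0.55 for DUSP5. This difference between lines was not tested, since each group has 1 library.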

How the results depend on the processing

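The number of feedback genes past 1.5-fold in HCT116 was 3 with a pseudocount of 0.1, with no filter on low values, after centring on the median of all genes, after rescaling without mitochondrial genes and after correction for GC content and length. Under these settings their median ran between 0.23 and 0.28 in HCT116 and between -0.30 (rescaled) and -0.16 (centred) in RKO, where it was -0.25 as reported. The number past 2-fold between the WT libraries of the lines was 3 with a pseudocount of 0.1, after centring and after rescaling; other settings, and the OE libraries, were not run. Between OE and WT, the numbers past 2-fold were 2 in HCT116 and 1 in RKO. The number past 1.5-fold in RKO was 1 and became 2 with a pseudocount of 0.1 (SPRY2 added), 2 after rescaling without mitochondrial genes (SPRY4 added) and 2 after correction for GC content and length (SPRY4 added). Single genes, AVEN included, gave 110 values under these settings and with fragments of genes overlapping on the same strand added. Only ETV5 had such an overlap, so that setting left the other genes unchanged, and the antisense gene at DUSP6 was not added. Of the 110 values, 103 moved by less than the reach of their log2 counting interval to either side of its middle. The other 7 moved by more, and none past 1.5-fold changed sign. Among the 7, PHLDA1 in RKO stood at 0.08 after centring, -0.06 after rescaling and 0.32 after GC correction, SPRED1 in RKO at 0.07 after GC correction, SPRY4 in HCT116 at 3.26 with a pseudocount of 0.1 and in RKO at -0.47 after centring, and PHLDA1 in HCT116 at -0.76 after GC correction. The counting interval lay off 1 for 13 ratios, 6 of 10 in HCT116 and 7 of 9 in RKO. That number was 15 with the longest and 10 with the shortest transcript of each gene. These lengths were chosen after seeing the data, as were the settings for the comparison between lines. The share of all genes whose intervals lay off 1 was not computed, so this count is not read as unusual. No paired analysis was possible because each comparison, made within a line, has 1 library per group; a fit of line plus AVEN status over the 4 libraries, which would average the lines, was not run. DUSP4 in RKO rests on about 30 fragments per library, so by counting error alone its ratio is known only within 0.631 to 1.84.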
